A study of Mus musculus with 16 samples.

Results

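The unfolded protein response (UPR) genes of the endoplasmic reticulum (ER) are described here in skeletal muscle of HFD-fed mice. The 10 genes *Xbp1*, *Hspa5*, *Hsp90b1*, *Calr*, *Dnajb9*, *Sdf2l1*, *Pdia4*, *Pdia6*, *Creld2* and *Herpud1* were taken by symbol from the 55471 genes of the count table, and all 10 were among the 14331 genes with enough counts to test. Bulk mRNA of 16 male mice was sequenced, 10 of them labelled heterozygous for *Npr1* (*Npr1*+/-) and 6 labelled wildtype (*Npr1*+/+). The heterozygous mice carry 1 copy of the allele of the B6.129-Npr1tm1Gar/J line, which was backcrossed to C57BL/6J, and the wildtype mice are their littermates. *Npr1* encodes GCA, the receptor of atrial natriuretic peptide, and the allele is carried in the germline, so it is not specific to muscle. Both groups were 12 weeks old at the start and ate the HFD for 12 weeks, and no mice on another diet were sequenced. The mice lived in 4 cages, each holding both labels, and the muscle that was sampled is not named for these libraries.

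The ER is where secreted and membrane proteins are folded, and unfolded proteins that build up there are sensed by IRE1 (encoded by *Ern1*), ATF6 and PERK (encoded by *Eif2ak3*). IRE1 splices *Xbp1* mRNA into the form that encodes an active transcription factor, ATF6 is cut to release one, and PERK slows translation and raises ATF4. XBP1 and ATF6 then raise the mRNA of ER chaperones, folding enzymes and degradation factors. Counts per gene add spliced and unspliced *Xbp1* together, so they give the level of *Xbp1* mRNA and not its splicing.

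XBP1 and ATF6 are known to act through short promoter elements, and the letters of 3 such elements were searched on both strands of the RefSeq promoters of GRCm38.p6 (250 bases before to 50 bases after the start). All 10 genes have such a promoter, beside 32851 promoters in all. The ER stress response element (ERSE, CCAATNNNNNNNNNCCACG) was found in 0.119% of all promoters (39) and in 5 of the 10 UPR genes: *Hspa5*, *Hsp90b1*, *Calr*, *Pdia6* and *Creld2*. The ERSE-II element (ATTGGNCCACG) was found in 0.0365% of all promoters (12) and in 1 of the 10, *Herpud1*. The core of the UPR element (TGACGTG) was found in 2.01% of all promoters (661) and in 1 of the 10, *Hspa5*. *Xbp1*, *Dnajb9*, *Sdf2l1* and *Pdia4* held none of these letters in this window. The genes were grouped as UPR genes by what is known of them, which includes these elements, so the share is a description of the group. The matches of ERSE and ERSE-II are printed 5′ to 3′ on the strand of the gene, with the element in capitals, because they show how the same element lies in different promoters. They lie at chr2:34772010-34772058 on the plus strand (*Hspa5*), chr10:86705518-86705671 on the minus strand (*Hsp90b1*), chr8:84847060-84847108 on the minus strand (*Calr*), chr12:17266476-17266524 on the plus strand (*Pdia6*), chr15:88819505-88819553 on the plus strand (*Creld2*) and chr8:94386362-94386402 on the plus strand (*Herpud1*).
Hspa5: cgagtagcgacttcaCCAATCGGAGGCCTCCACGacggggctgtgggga
Hsp90b1: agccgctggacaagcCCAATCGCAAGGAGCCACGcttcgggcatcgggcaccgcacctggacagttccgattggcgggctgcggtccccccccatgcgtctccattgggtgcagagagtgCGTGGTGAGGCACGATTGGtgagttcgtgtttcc
Calr: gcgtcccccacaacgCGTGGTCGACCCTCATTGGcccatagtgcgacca
Pdia6: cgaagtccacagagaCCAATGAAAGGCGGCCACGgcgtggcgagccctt
Creld2: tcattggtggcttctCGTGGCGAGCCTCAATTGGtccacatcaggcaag
Herpud1: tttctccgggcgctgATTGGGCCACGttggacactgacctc
In *Hspa5* and *Pdia6* the element reads CCAAT first. *Calr* and *Creld2* hold it on the opposite strand, where it reads CGTGG first, and *Hsp90b1* holds 1 match on each strand. No match of one element overlaps that of another in these 10 promoters. The matches end between 42 and 194 bases before the start.

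**Figure D1:**
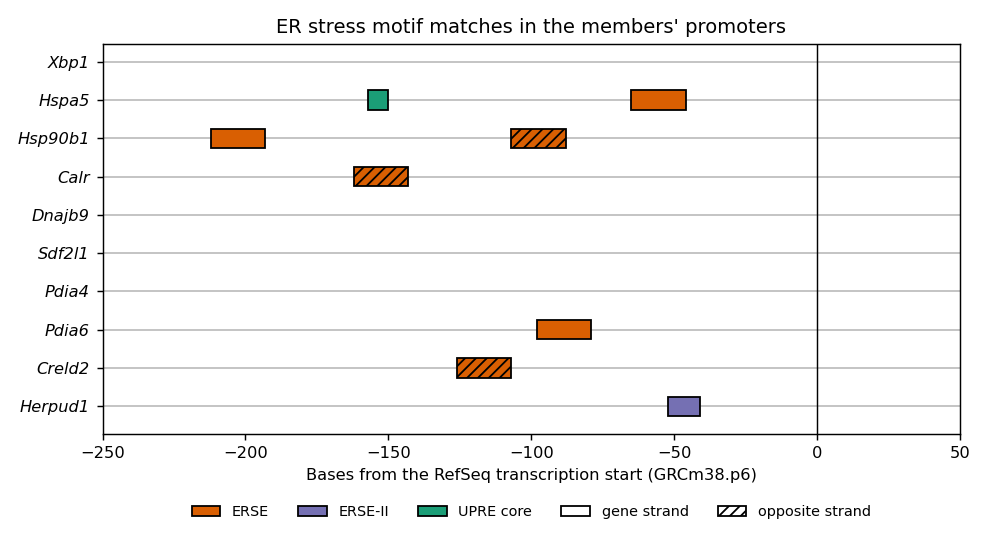
Position of each element match in bases from the RefSeq start (x axis) for the 10 UPR genes (y axis), coloured by element, with hatching for the strand opposite to the gene. Matches lie in 6 of the 10 promoters, and *Hsp90b1* and *Hspa5* hold 2 each.

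The depth ranged from 15273472 to 59682677 counted fragments per mouse, with the highest total in heterozygous replicate 5, and the 10 genes took 0.0715% to 0.118% of each library. Levels are given as CPM, the counts of a gene relative to the TMM-scaled library size of the mouse, and 3 counts correspond to 0.0493 to 0.219 CPM, a floor that covers counting error only. *Npr1* itself had 13.6 ± 3.87 CPM (SD, n = 10) in the libraries labelled heterozygous and 12.2 ± 1.05 CPM (SD, n = 6) in those labelled wildtype. Its mRNA was thus not lower in the former, and directions are between libraries as labelled. Apart from these libraries, the paper reports lower *Npr1* mRNA and GCA protein in skeletal muscle of *Npr1*+/- mice. All 10 muscle fiber markers exceeded a mean of 1 CPM, with a summed level of 97890 to 163800 CPM per mouse. Summed levels of the marker lists for the other cell types overlapped between the labels. In bulk muscle, a lower level can come from fewer cells of a type or from less RNA per cell, and these cannot be told apart.

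The UPR genes spanned a wide range of levels. Per kilobase of the deposited gene length, *Herpud1* (63.2 ± 5.46 CPM per kilobase, SD, n = 16), *Calr* (62.7 ± 9.59) and *Hspa5* (57.9 ± 13.2) were the highest. *Herpud1* exceeded *Calr* in 9 of 16 mice and *Calr* exceeded *Hspa5* in 11, so the order of these 3 was within their spread. *Hsp90b1* (30.9 ± 4.69), *Dnajb9* (28.0 ± 4.77) and *Xbp1* (23.9 ± 4.08) followed. *Hspa5* exceeded *Hsp90b1* in all 16 mice, *Hsp90b1* exceeded *Dnajb9* in 12 and *Dnajb9* exceeded *Xbp1* in 14. *Hsp90b1* and *Dnajb9* differed by less than 1 SD, and *Dnajb9* and *Xbp1* by about 1 SD. *Pdia6* (11.5 ± 1.57) lay below *Xbp1* in all 16 mice. *Pdia4* (5.35 ± 1.05) and *Creld2* (4.79 ± 0.995) were not separated beyond their spread, with *Pdia4* higher in 11 of 16 mice. *Sdf2l1* (2.22 ± 0.942) was the lowest of the 10 in every mouse. The spread between mice also differed. The coefficient of variation was 8.64% for *Herpud1* and 42.5% for *Sdf2l1*, whose highest and lowest mice differed 4.92-fold.

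The comparison of the genotype labels asked whether GCA haploinsufficiency changed the UPR genes in muscle of HFD-fed mice. None of the 10 UPR genes passed the test. All 10 had a lower fitted level in the libraries labelled heterozygous, with log2 fold changes from -0.30 (*Sdf2l1*) to -0.02 (*Dnajb9*). Leaving out 1 mouse turned the sign of *Dnajb9* in 7 of 16 fits, and of *Xbp1* (0.13) and *Herpud1* (0.01) without wildtype replicate 4. With the label alone *Herpud1* was 0.02. The median of the 10 was -0.17, beside a median of -0.01 over all 14331 genes, of which 51.6% lay below 0. The test was edgeR's quasi-likelihood test, with terms for cage and weight, and p-values were adjusted over all genes tested (Benjamini-Hochberg). It called 0 of the 10 (0% of all genes were called), and the adjusted p was 1 for each of them. The paper reports genes that differ between the genotypes, from edgeR with the same covariates, and the present fit did not reproduce this. At an unadjusted p under 0.05 the count was again 0 of the 10, beside 1.05% of all genes. DESeq2 and limma-voom also called 0 of the 10, beside 6 and 0 of all 14331 genes. Without heterozygous replicate 8, *Hsp90b1* and *Pdia6* had an unadjusted p under 0.05 (2 of the 10, beside 1.25% of all genes). The same 2 genes did so with the label alone and no covariate (beside 3.80% of all genes), and neither passed after adjustment. The shared sign of the 10 genes is a description, because they vary together from mouse to mouse and no test was made over them. The median was -0.09 without heterozygous replicate 5, -0.10 without wildtype replicate 4 and -0.08 with the label alone, and lay between these and -0.20 in the other fits without 1 mouse. With body weight as the only covariate it was -0.04, and *Xbp1* and *Sdf2l1* lay above 0.

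*Xbp1* (ENSMUSG00000020484, chromosome 11 from 5520659 to 5525893, plus strand) encodes the transcription factor of the IRE1 branch. Its level was 61.2, 72.3 and 109.3 CPM (lowest, median and highest of 10) in the libraries labelled heterozygous. In those labelled wildtype it was 68.8, 77.6 and 86.4 CPM (n = 6). The wildtype range lay inside the heterozygous one, and the log2 fold change was -0.05 (standard error 0.13, 95% interval -0.33 to 0.23).

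*Hspa5* (ENSMUSG00000026864, chromosome 2 from 34771970 to 34776531, plus strand) encodes BiP, the main HSP70 chaperone of the ER, which also holds the 3 stress sensors inactive. It had 194.2, 209.8 and 370.4 CPM in the libraries labelled heterozygous and 237.1, 251.9 and 379.9 CPM in those labelled wildtype. In 8 of the 10 heterozygous mice the level was below every wildtype mouse, and heterozygous replicate 8 (370.4 CPM) and replicate 9 (239.3 CPM) were not. The fitted log2 fold change was -0.15 (standard error 0.17, 95% interval -0.52 to 0.22). *Hsp90b1* (ENSMUSG00000020048, chromosome 10 from 86690209 to 86705509, minus strand) encodes GRP94, the HSP90 chaperone of the ER. Its level was 94.3, 111.1 and 156.4 CPM in the libraries labelled heterozygous and 121.3, 142.3 and 154.3 CPM in those labelled wildtype, so the highest mouse of all was a heterozygous one. The log2 fold change was -0.23 (standard error 0.15, unadjusted p = 0.140, edgeR). The antisense gene *1810014B01Rik* overlaps it with 8310 counts over all mice beside 47267 for *Hsp90b1*, and since the sources name different kits it is unclear whether strand was used. *Calr* (ENSMUSG00000003814, chromosome 8 from 84841850 to 84846934, minus strand) encodes calreticulin, a calcium-binding chaperone for glycoproteins. It had 130.4, 169.5 and 228.4 CPM against 147.5, 187.9 and 226.6 CPM, with a log2 fold change of -0.20 (95% interval -0.48 to 0.08).

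*Dnajb9* (ENSMUSG00000014905, chromosome 12 from 44205559 to 44210326, minus strand) encodes ERdj4, a J-domain partner of BiP. It had the value nearest to 0, with 51.9, 68.7 and 94.0 CPM in the libraries labelled heterozygous and 64.0, 71.5 and 95.7 CPM in those labelled wildtype. *Sdf2l1* (ENSMUSG00000022769, chromosome 16 from 17130138 to 17132383, minus strand) encodes an ER protein that works with BiP and its J-domain partners. Its level was 1.10, 2.22 and 5.42 CPM against 1.76, 2.51 and 3.26 CPM. The group means were close (2.43 and 2.50 CPM), and the fitted log2 fold change of -0.30 had the widest interval of the 10 (-0.97 to 0.37). It was -0.60 without wildtype replicate 5 and -0.09 without heterozygous replicate 5.

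*Pdia4* (ENSMUSG00000025823, chromosome 6 from 47796141 to 47813430, minus strand) and *Pdia6* (ENSMUSG00000020571, chromosome 12 from 17266545 to 17284770, plus strand) encode protein disulfide isomerases. *Pdia6* had 31.7, 39.5 and 54.9 CPM in the libraries labelled heterozygous and 43.9, 46.9 and 51.2 CPM in those labelled wildtype. In 9 of the 10 heterozygous mice *Pdia6* was below every wildtype mouse, and replicate 8 was the exception. Its log2 fold change was -0.22 (standard error 0.14, 95% interval -0.51 to 0.08), with the smallest unadjusted p of the 10 genes (p = 0.135, edgeR), which ranked 536 of 14331. *Pdia4* had 8.03, 11.9 and 17.1 CPM against 11.3, 13.6 and 17.7 CPM, a log2 difference of -0.12 in the fit. *Creld2* (ENSMUSG00000023272, chromosome 15 from 88819646 to 88826683, plus strand) encodes a secreted ER stress protein, and had 4.90, 6.04 and 9.65 CPM against 5.42, 6.34 and 9.27 CPM. *Herpud1* (ENSMUSG00000031770, chromosome 8 from 94386438 to 94395364, plus strand) encodes a membrane protein of ER-associated degradation. Its level was 135.4, 150.1 and 165.1 CPM against 117.8, 150.8 and 169.7 CPM, so the heterozygous range lay inside the wildtype one.

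**Figure D2:**
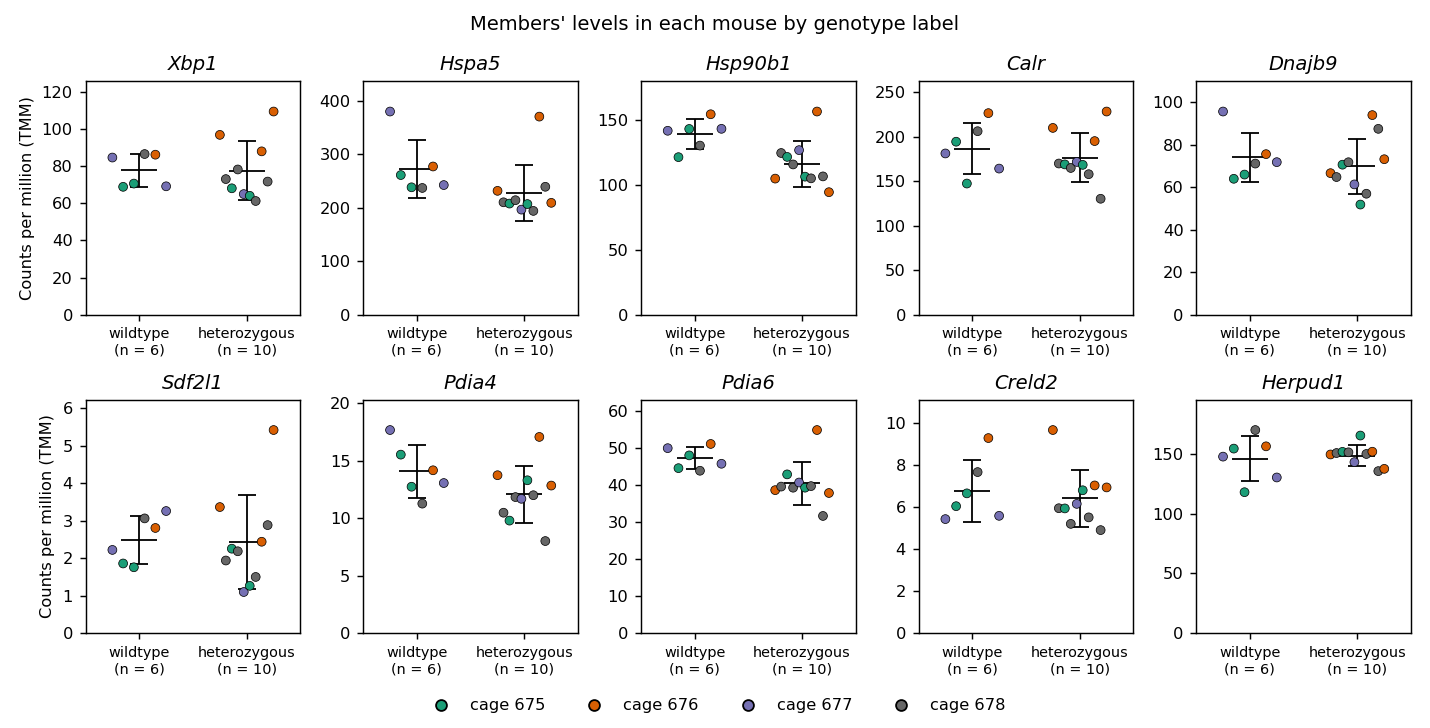
CPM (y axes, from 0) of each UPR gene in each of the 16 mice by genotype label (x axes), with points coloured by cage and bars for the mean ± SD. The ranges of the labels overlap for all 10 genes, and mice of cage 676 hold the highest values of *Xbp1*, *Calr*, *Sdf2l1*, *Creld2*, *Hsp90b1* and *Pdia6*. That cage also holds the lowest *Hsp90b1* value (94.3 CPM) and a low *Pdia6* value (37.9 CPM), both in heterozygous replicate 10.

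The muscle fiber markers were set beside these values as a description, with no test. Over the 16 mice, their summed level had an r below 0 with *Hsp90b1* (-0.75), *Pdia6* (-0.64), *Hspa5* (-0.60), *Dnajb9* (-0.43) and *Pdia4* (-0.40). It had an r above 0 with *Xbp1* (0.10), *Sdf2l1* (0.14), *Calr* (0.20), *Creld2* (0.26) and *Herpud1* (0.41). Their summed level was 136500 ± 19950 CPM (SD, n = 10) in the libraries labelled heterozygous and 117700 ± 18440 CPM (SD, n = 6) in those labelled wildtype. The mice with the lowest sums were wildtype replicate 3 (97890 CPM) and heterozygous replicate 8 (98990 CPM). Their *Hsp90b1* levels of 143.0 and 156.4 CPM were among the 4 highest of the 16. The 3 mice with the highest sums, heterozygous replicates 7, 1 and 10 (163800, 155200 and 153300 CPM), had 105.0, 104.8 and 94.3 CPM of *Hsp90b1*, the 3 lowest. The part of these markers in the result was not tested.

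**Figure D3:**
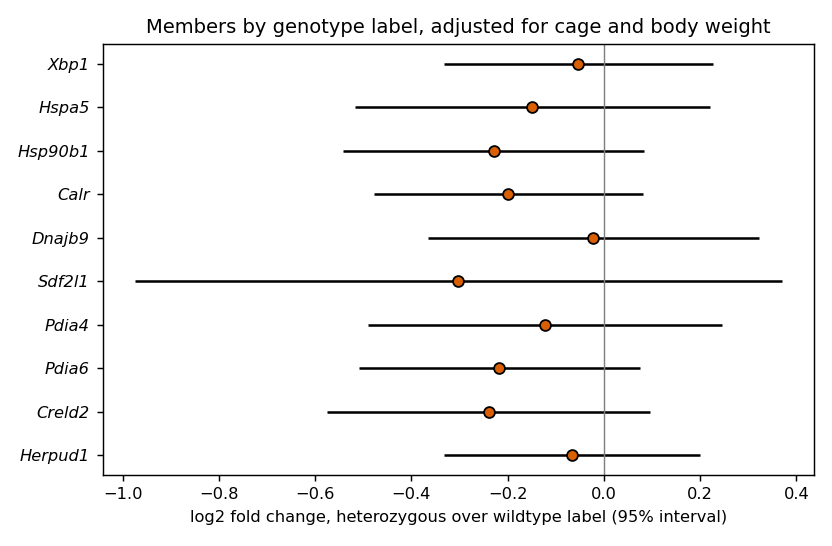
Fitted log2 fold change (x axis, heterozygous over wildtype label) of each UPR gene (y axis) with its 95% interval, from edgeR with terms for cage and weight. All 10 points lie below 0, from -0.30 to -0.02, and each interval includes 0.

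The other genes of the pathway were described from 5 lists that hold 66 genes of the table, of which 63 were tested. With the genotype label, 0 of the 63 passed the edgeR test and 1 had an unadjusted p under 0.05, near the 1.05% of all genes. This was *Phgdh*, an enzyme of serine synthesis that ATF4 raises, and its log2 fold change was -0.73 (standard error 0.33, unadjusted p = 0.0411, adjusted p = 1, edgeR). DESeq2 and limma-voom also called 0 of the 63, beside 6 and 0 of all 14331 genes. Of the 17 other chaperones and folding enzymes, 14 lay below 0, with a median of -0.08. The 2 with the smallest p were *Manf*, a secreted ER stress factor (log2 fold change -0.26), and *Dnajb11*, a further partner of BiP (-0.15). Among the 9 sensors and transcription factors the median was -0.01. *Atf6* had 0.21 and *Atf6b* 0.09, both on the log2 scale with adjusted p of 1 (edgeR). For ER-associated degradation the median was 0.01 over 13 genes, with -0.16 for *Erlec1* and -0.19 for *Selenos*. For translocation and traffic it was -0.02 over 14 genes, with 0.45 for *Srp54a* and -0.19 for *Ssr2*. For the PERK-ATF4 targets it was 0.01 over 10 genes, and *Ddit4*, an inhibitor of mTORC1, had 0.52. The 12 heat shock genes of the cytosol and mitochondria, which answer to unfolded proteins outside the ER, had 0 calls and a median of -0.04. *Hspb1* (-0.27) and *Dnajb1* (0.22) had the smallest p among them.

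Body weight, a covariate of the study's model, was also read from the same fit. It was 43.5 ± 3.79 g (SD, n = 10) in the mice labelled heterozygous and 47.4 ± 4.69 g (SD, n = 6) in those labelled wildtype. The UPR genes did not pass as a function of weight. The slopes ran from -0.02 (*Creld2*) to 0.03 (*Hspa5*) log2 units per gram, with 4 of the 10 below 0. The 95% interval was -0.02 to 0.08 for *Hspa5* and -0.07 to 0.02 for *Creld2*. edgeR called 0 of the 10 (0% of all genes), and 0 of the 10 had an unadjusted p under 0.05, beside 17.1% of all genes. DESeq2 and limma-voom also called 0 of the 10 for weight, and each called 0 of all 14331 genes.

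The result for weight depended on 1 mouse over the whole table. Heterozygous replicate 3 weighed 40.1 g in cage 675, where the other 3 mice weighed 46.2 to 54 g. Without it, 22.1% of all genes were called for body weight (3158 of 14284), and still 0 of the 10 UPR genes were. The UPR gene nearest to the threshold was then *Dnajb9*, with a slope of 0.05 log2 units per gram (adjusted p = 0.0764, edgeR), and it was the only one of the 10 with an unadjusted p under 0.05, beside 37.6% of all genes. Of the 63 other pathway genes, 0 were called with all mice, with 10 at an unadjusted p under 0.05 (15.9%, 8 lower and 2 higher with weight). Without this mouse 15 of the 63 were called (23.8%, 8 lower and 7 higher), beside 1953 lower and 1205 higher over all genes. Both shares are near those of all genes (17.1% and 22.1%) and set the pathway apart in neither case. The lower ones included *Syvn1* and *Sel1l*, the ubiquitin ligase and its adaptor in ER-associated degradation. Their slopes were -0.17 and -0.18 log2 units per gram (adjusted p = 0.00429 and 0.00472, edgeR). *Ern1*, which encodes IRE1, had a slope of -0.19 (adjusted p = 0.00459, edgeR), and with all mice -0.13 (adjusted p = 0.245). *Vcp*, the ATPase that draws proteins out of the ER, and *Uggt1*, a sensor of glycoprotein folding, had -0.12 and -0.16. The higher ones included *Spcs1* of the signal peptidase (0.11), *Sec61g* of the translocon (0.13) and *Ppib*, an ER prolyl isomerase (0.12). With DESeq2 and limma-voom on all mice, 0 of the 63 were called for weight, beside 0 of all genes in each. Among the 12 heat shock genes 0 were called with all mice and 4 had an unadjusted p under 0.05, all lower with weight, with -0.12 for *Bag3* and -0.06 for *Hsph1*. Over all genes at this threshold, 1769 were lower and 680 higher with weight.

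Cage was the third term of the fit. None of the 10 UPR genes passed, and 3 of the 10 (*Creld2*, *Xbp1* and *Calr*) had an unadjusted p under 0.05, beside 7.36% of all genes. The unadjusted p-values were 0.0219, 0.0311 and 0.0440, and the adjusted p was 0.656 for each (edgeR). Of all genes, 4 passed (0.0279%). DESeq2 and limma-voom called 0 of the 10, beside 78 and 1 of all 14331 genes. At an unadjusted p under 0.05 there were 4 by DESeq2 (beside 10.6% of all genes) and 3 by limma-voom (beside 5.42%). With the library size as the only scaling none of the 10 was under 0.05 unadjusted. The calls over all genes also fell with this scaling, from 4 to 0. Leaving out each mouse in turn moved this count from 0 of the 10 (without heterozygous replicate 1, beside 4.55% of all genes) to 5 of the 10 (without heterozygous replicate 3, beside 28.7% of all genes), with 0 passing after adjustment.

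Of the 10 genes, 7 had their highest cage mean in cage 676, as did 32.2% of all genes tested, whereas *Hsp90b1* had it in cage 677, *Herpud1* in cage 678 and *Hspa5* in cage 677 (273.0 CPM beside 272.2 CPM in cage 676). *Xbp1* was 95 ± 10.6 CPM (SD, n = 4) in cage 676, against 67.8 ± 2.78 (n = 4) in cage 675, 72.9 ± 10.3 (n = 3) in cage 677 and 74.1 ± 9.25 (n = 5) in cage 678. The values in cage 676 ran from 86.1 to 109.3 CPM, and 1 mouse elsewhere (86.4 CPM) reached this range. *Calr* was 215.1 ± 15.6 CPM in cage 676, and the highest other cage mean was 172.4 ± 8.52. *Creld2* was 8.22 ± 1.44 CPM in cage 676 and 6.35 ± 0.431 in cage 675, the next highest. *Sdf2l1* was 3.51 ± 1.33 CPM in cage 676 and 2.31 ± 0.652 in cage 678, the next highest. Its values in cage 676 ran from 2.44 to 5.42 CPM, the highest in heterozygous replicate 10, and mice of cages 677 and 678 reached 3.26 and 3.06 CPM. The unadjusted p of *Sdf2l1* for cage was 0.0608 (edgeR). *Hsp90b1*, *Pdia6* and *Herpud1* had the largest unadjusted p-values for cage, of 0.816, 0.594 and 0.798 (edgeR). Cage 676 held 3 heterozygous mice and 1 wildtype mouse.

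The summed level of the B cell and plasma cell markers was also high in 2 of the 4 mice of this cage. It was 275.6 CPM in heterozygous replicate 10 and 261.8 CPM in replicate 1, the 2 mice with the highest *Xbp1*, against 80.2 to 183.4 CPM in the other 14. Of these 8 markers, *Ighm* (122.1 CPM), *Sdc1* (8.71 CPM) and *Igkc* (1.32 CPM) exceeded a mean of 1 CPM, so the sum was mostly *Ighm*. The defining markers *Cd79a*, *Cd79b*, *Ms4a1*, *Jchain* and *Mzb1* were below 1 CPM. The 2 other mice of cage 676, heterozygous replicate 8 (141.6 CPM) and wildtype replicate 5 (86.8 CPM), had *Xbp1* levels of 87.9 and 86.1 CPM. Over the 16 mice, *Xbp1* had r = 0.77 with this summed level. It also had r = -0.725 with the endothelial, 0.68 with the macrophage, 0.54 with the fibroblast and 0.53 with the erythroid sum. Plasma cells are known for high *Xbp1*, and the part of these marker lists in the result was not tested.

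Of the 63 other pathway genes, 0 passed for cage in edgeR and 8 had an unadjusted p under 0.05, beside 7.36% of all genes. *Ddit4* was the nearest to the threshold (unadjusted p = 6.88e-05, adjusted p = 0.10, edgeR). It had 35.0 ± 22 CPM (SD, n = 4) in cage 675, 15.9 ± 5.14 in cage 676, 8.53 ± 1.52 in cage 677 and 8.18 ± 2.47 in cage 678. DESeq2, which called 0.544% of all genes for cage (78), called *Ddit4* (adjusted p = 5.19e-06) and *Srp54a*, a subunit of the signal recognition particle (adjusted p = 0.0160), and limma-voom called 0 with 6 at an unadjusted p under 0.05, beside its 5.42% of all genes. *Manf* was highest in cage 676 (24.7 ± 2.29 CPM) and lowest in cage 675 (15.5 ± 2.17 CPM). *Atf3*, a transcription factor downstream of ATF4, averaged 22 ± 13.3 CPM in cage 676 and 6.36 to 6.99 CPM in the others. *Chac1*, a further ATF4 target, was highest in cage 678 (197 ± 31.6 CPM) and lowest in cage 675 (77.2 ± 24.6 CPM), so the PERK-ATF4 targets did not share an order of cages. Without heterozygous replicate 3, 8 of the 63 passed for cage beside 6.08% of all genes, among them *Sel1l* and *Syvn1*, and 0 of the 10 UPR genes did. Without wildtype replicate 3, 1 of the 63 passed beside 0.0277% of all genes (4), *Ddit4* (adjusted p = 0.0347, edgeR).

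The UPR genes were then compared with each other over the 16 mice. Of the 45 pairs, 37 had a Pearson r above 0 and the median r was 0.30, with a range of -0.16 to 0.86. In 9 pairs the adjusted p was under 0.05 (two-sided permutation test with 100000 resamples of log2 CPM, Benjamini-Hochberg over the 45 pairs), and in 7 by Spearman's rho. As background, the 102681615 pairs of all 14331 tested genes had a median r of 0.00, with 50.1% above 0, and 8.46% had an r of at least 0.65, the smallest among the 9. With the library size as the only scaling the medians were 0.44 for the UPR pairs and 0.09 for all pairs. No test of the UPR pairs against other pairs was made. Of the 9 pairs, 6 joined *Hspa5*, *Hsp90b1*, *Pdia4*, *Pdia6* and *Dnajb9*, and 3 joined *Xbp1*, *Sdf2l1*, *Calr* and *Creld2*, a split seen in the values and not set beforehand. By Spearman's rho, *Dnajb9* also paired with *Xbp1* and *Sdf2l1* (rho = 0.68 and 0.67, adjusted p = 0.0366 for each, permutation test), so the groups were not separate. *Herpud1* was in none of the 9 pairs, and its median r with the others was 0.05.

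The closest pair was *Hsp90b1* and *Pdia6* (r = 0.86, adjusted p = 0.00180; rho = 0.89, adjusted p = 0.000900, permutation test). It had r = 0.85 without the 2 mice farthest from the median of *Hsp90b1*, 0.89 after centring on cage means, and 0.79 and 0.82 within the heterozygous and wildtype labels. *Xbp1* and *Sdf2l1* had r = 0.80 (adjusted p = 0.00247) and rho = 0.76 (adjusted p = 0.0247, permutation test). Their r was 0.64 without the 2 farthest mice and 0.66 after centring on cage. *Hspa5* and *Dnajb9*, BiP and its partner, had r = 0.78 (adjusted p = 0.00555) and rho = 0.72 (adjusted p = 0.0289, permutation test). Both were high in heterozygous replicate 8 (370.4 and 94.0 CPM) and wildtype replicate 1 (379.9 and 95.7 CPM). Without these 2 mice r was 0.50, so much of this relation rested on them. *Creld2* and *Calr* had r = 0.74 (adjusted p = 0.00911) and rho = 0.73 (adjusted p = 0.0289, permutation test), and r was 0.48 after centring on cage. *Xbp1* and *Calr* had r = 0.72 (adjusted p = 0.0104) and rho = 0.68 (adjusted p = 0.0366, permutation test), and r was 0.44 after centring on cage. In the pairs of *Hspa5* with *Pdia6*, *Pdia4* and *Hsp90b1*, and of *Pdia4* with *Pdia6*, r was 0.65 to 0.74 and the adjusted p by Spearman's rho was 0.0602 to 0.151 (permutation test). Without the 2 mice farthest from the median of the first-named gene, *Hspa5* and *Pdia4* had r = 0.32, *Hspa5* and *Pdia6* 0.48, *Hspa5* and *Hsp90b1* 0.55, and *Pdia4* and *Pdia6* 0.53. Centred on cage means and permuted within cages, 2 of the 45 pairs passed, and the median r was 0.18, beside 0.00 for all pairs. Without heterozygous replicate 8, 6 pairs passed.

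**Figure D4:**
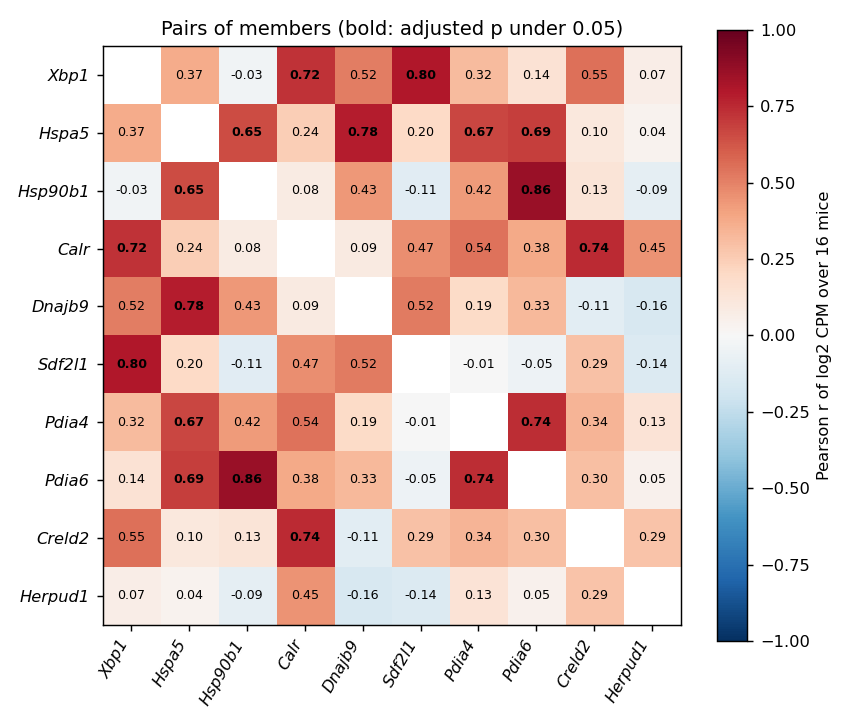
Pearson r of log2 CPM over 16 mice for each of the 45 pairs of UPR genes (both axes), coloured from -1 to 1, with bold values where the adjusted p is under 0.05. The 9 bold pairs range from 0.65 to 0.86, and the row of *Herpud1* holds none.

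As a level of the group in a mouse, each gene's log2 CPM was set to a mean of 0 and an SD of 1 over the 16 mice and averaged over the 10 genes. Heterozygous replicate 8 (1.12) and wildtype replicate 5 (0.99), both of cage 676, had all 10 genes above their mean. Wildtype replicate 1 (0.77, cage 677) and wildtype replicate 4 (0.50, cage 678) followed with 8 of 10 genes above the mean. Heterozygous replicates 9 (-0.83) and 7 (-0.79), both of cage 678, were the lowest. Replicate 9 nevertheless had *Dnajb9* and *Sdf2l1* above their means while it was the lowest of all mice for *Calr*, *Pdia4*, *Pdia6* and *Creld2*. All 4 mice of cage 676 were among the 6 highest.

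**Figure D5:**
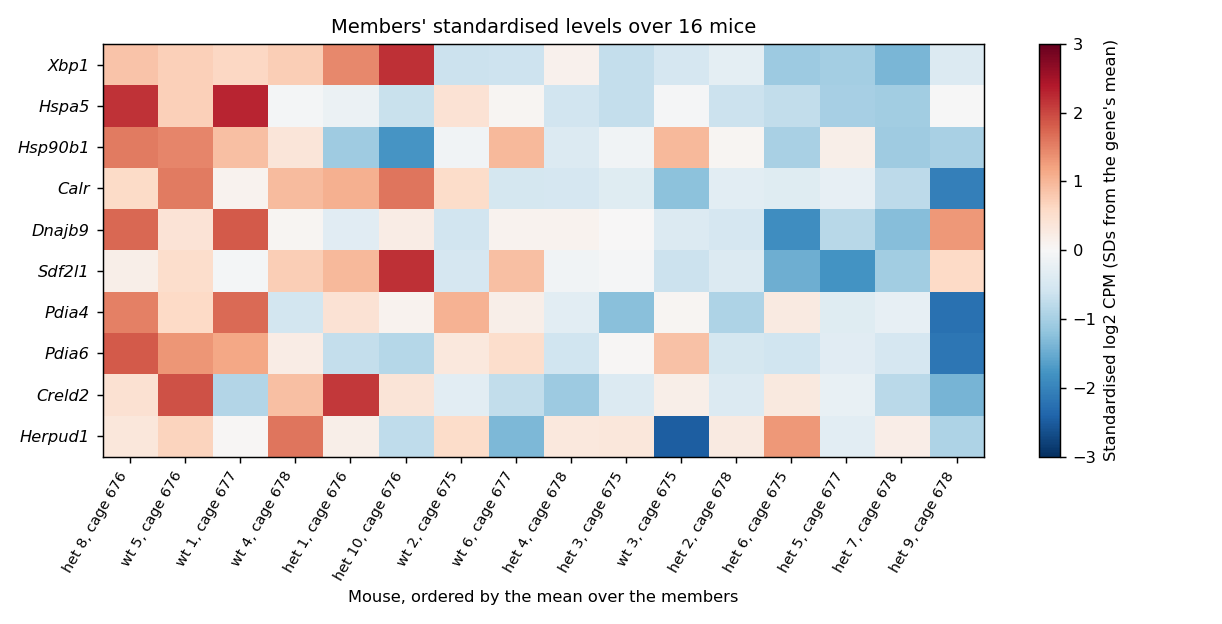
Standardised log2 CPM (colour, SDs from the mean of the gene) of the 10 UPR genes (rows) in the 16 mice (columns, het for heterozygous and wt for wildtype, with replicate and cage), ordered by the mean over the genes. The mean falls from 1.12 in heterozygous replicate 8 to -0.83 in heterozygous replicate 9.

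The genes most like this group mean were read over the other 14321 tested genes, as a description with no test. The highest Pearson r belonged to *Banp* (0.88), *Myg1* (0.86), *Rhoc* (0.86), *Vdac3-ps1* (0.85), *Cops4* (0.85), *Hspa8* (0.85), *Snrpn* (0.85), *Prelid1* (0.84), *Cct2* (0.84) and *Psmc2* (0.83). *Hspa8* encodes the constitutive HSP70 of the cytosol, *Cct2* a subunit of the cytosolic chaperonin and *Psmc2* an ATPase of the proteasome. *Vdac3-ps1* is named as a pseudogene, so its reads may belong to *Vdac3*. The lowest r belonged to *Mettl27* (-0.89), *4930516B21Rik* (-0.88), *Slc38a6* (-0.86), *4633401B06Rik* (-0.80) and *Endov* (-0.79). After centring on cage means, 2 of the 10 highest genes were again among the 10 highest, *Myg1* (0.88) and *Psmc2* (0.90).

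Genes of the same pathway differed in how they followed the group mean. Over all other genes the median r was 0.05 and 7.93% had r above 0.5. The 17 other chaperones and folding enzymes had a median r of 0.38, and 5 of them exceeded 0.5, led by *Manf* (0.78) and *Dnajb11* (0.75). *Uggt1* was the lowest of them (-0.56). The share above 0.5 was 29.4% for this list, 30% for the PERK-ATF4 targets and 25% for the heat shock genes. It was 23.1% for ER-associated degradation, 22.2% for the sensors and transcription factors and 21.4% for translocation and traffic. The 14 genes of translocation and traffic had a median of 0.39, with a lowest r of -0.61. The 12 heat shock genes had a median of 0.27, with *Hspa8* at 0.85 and *Hsp90aa1* at 0.74. The 9 sensors and transcription factors had a median of -0.20, from *Atf4* (0.63) and *Ddit3* (0.62) to *Ern1* (-0.49). The 13 genes of ER-associated degradation had a median of -0.08, with *Sel1l* the lowest (-0.65). After centring on cage means, r was 0.59 for *Atf4*, 0.36 for *Ddit3*, -0.52 for *Ern1* and -0.56 for *Sel1l*, which are descriptions of genes picked with their values in view. For the PERK-ATF4 targets the median was 0.32 over 10 genes, led by *Atf3* (0.58) and *Asns* (0.56). After centring on cage means the median was 0.04 for the sensors and transcription factors and -0.01 for the PERK-ATF4 targets, beside 0.04 for all other genes, while the other chaperones kept 0.38 and the translocation genes 0.33. These values share the libraries and their scaling.

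Of the marker lists, 3 held genes with an r beyond 0.5 in either direction with the group mean. The 10 muscle fiber markers had a median r of -0.22, and 5 of them were below -0.5, beside 1338 of the 14321 other genes. The rest of these markers were above 0, from 0.07 to 0.44, so the list was split in direction. The 5 macrophage markers had a median r of 0.54, above each pathway list, and 3 of them exceeded 0.5. The 5 endothelial markers had a median r of -0.57, and 3 of them were below -0.5. After centring on cage means the muscle fiber, macrophage and endothelial medians were -0.24, 0.34 and -0.41. The fibroblast, adipocyte, B cell and plasma cell, and erythroid lists had medians of 0.01 to 0.26 and no gene beyond 0.5 either way. Body weight had r = 0.42 and rho = 0.51 with the group mean. The summed macrophage level was 48.6 CPM in heterozygous replicate 8 and 56.2 CPM in wildtype replicate 5, the 2 mice with the highest group mean. It was highest, at 61.2 CPM, in heterozygous replicate 9, the mouse with the lowest group mean, and lowest, at 21.4 CPM, in heterozygous replicate 7. The summed endothelial level was highest in heterozygous replicates 7 (479 CPM) and 6 (421.5 CPM) and lowest in replicate 9 (126.8 CPM). All 5 macrophage and all 5 endothelial markers exceeded a mean of 1 CPM, and their part in the result was not tested.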

How the data were processed

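Skeletal muscle mRNA of 16 mice was sequenced as 52-bp paired ends. The authors deposited raw counts per gene, without normalization, with a gene length. The submitters' processing notes name STAR 2.7.2b, featureCounts 1.6.4 and GRCm38, and the methods name the GENCODE M24 annotation. The labels name a Tecan kit and the methods a TruSeq Stranded kit, so strand use is unclear. Symbols were paired for 55144 of 55471 identifiers.

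Genes were filtered by filterByExpr with the genotype label, and their counts were scaled by TMM. In edgeR 4.0.16 (R 4.3.3), the tests were glmQLFit (robust = TRUE, legacy = TRUE) and glmQLFTest on genotype label, cage and body weight together, with Benjamini-Hochberg adjustment over 14331 genes and a threshold of 0.05. log2 CPM used a prior count of 2. Correlations used SciPy and NumPy under Python. Intervals are at 95%. DESeq2 1.42.0, limma 3.58.1 (voom), other covariates, scalings and filters, a replicate block and leaving out each mouse were alternatives. Steps were tested on simulated data.

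The 10 genes and the lists were chosen with earlier results of these data known. Genes named are the 10, from each other list the genes called or else the 2 with the smallest p, *Npr1*, and the 10 highest and 5 lowest by r with the group mean. Other list genes named (*Sel1l*, *Vcp*, *Uggt1*, *Spcs1*, *Sec61g*, *Ppib*, *Chac1*, *Atf4*, *Ddit3*, *Asns*, *Ern1* and *Hsp90aa1*, where outside that rule) were picked with their values in view. Each library is labelled as 1 mouse of its own. All 16 mice entered the main fit.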

Additional observations from a re-analysis of the deposited data

Results flagged for a closer look

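Within each label, the highest or lowest mouse of each of the 10 UPR genes was compared with its neighbour by Dixon's ratio on log2 CPM. Of 20 groups checked, 3 held a mouse that stood apart, and chance gives about 1 in 20. *Hspa5* in heterozygous replicate 8 had a log2 CPM of 8.53 (370.4 CPM), with the next heterozygous mouse at 239.3 CPM, a gap of 0.677 of the range. *Hspa5* in wildtype replicate 1 had a log2 CPM of 8.57 (379.9 CPM), with the next wildtype mouse at 277.2 CPM, a gap of 0.669 of the range. *Creld2* in heterozygous replicate 1 had a log2 CPM of 3.28 (9.65 CPM), with the next heterozygous mouse at 7.02 CPM, a gap of 0.471 of the range. The cause was not tested.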

How the results depend on the processing

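None of the 10 UPR genes was called for the genotype label, body weight or cage in any of the fits run, including each fit without 1 mouse (range 0 to 0). The smallest adjusted p among them was 0.550 (*Hspa5*, replicate block) over 27 alternative fits for the label and 0.0764 over 25 for weight. For the other pathway genes, leaving out each mouse gave 0 to 0 calls for the label, 0 to 15 for weight and 0 to 8 for cage, the highest without heterozygous replicate 3, and 1 for cage without wildtype replicate 3. DESeq2 gave 2 calls for cage. The 9 pairs became 2 after centring on cage, 2 in the heterozygous mice only, and 6 to 10 without 1 mouse.

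Same-numbered mice of the labels share only a number: their deviations had a mean r of 0.078 (0.033 to 0.17, 6 pairs), beside -0.008 for 54 other pairs. The replicate block gave 0 calls among the UPR genes, with 1 of the 10 (*Hspa5*) and 6 of the 63 other pathway genes at an unadjusted p under 0.05 for the label beside 9.03% of all genes, and opposite signs for *Creld2* (0.0067) and *Herpud1* (0.028) by label, and for *Hsp90b1* (-0.0055), *Dnajb9* (-0.014), *Sdf2l1* (-0.039), *Creld2* (0.011) and *Pdia6* (0.00063) by weight.

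Other signs reversed, none in a called value, for the label with body weight as the only covariate (*Xbp1* 0.070, *Sdf2l1* 0.024) and with the label alone (*Herpud1* 0.025), and without 1 mouse for *Xbp1* (-0.15 to 0.13), *Dnajb9* (-0.073 to 0.035) and *Herpud1* (-0.11 to 0.0080). For weight they reversed with weight as the only covariate (*Creld2* 0.014, *Pdia6* 0.0091, *Calr* 0.0084), for *Pdia6* with RLE (0.0027), library size (0.0083), DESeq2 (0.0027) and no filter (0.00060), and without 1 mouse for *Hsp90b1* (-0.0029 to 0.014), *Sdf2l1* (-0.015 to 0.057) and *Pdia6* (-0.0071 to 0.0046). Without 1 mouse, label values that kept their sign ran from -0.60 to -0.094 for *Sdf2l1*, -0.24 to -0.075 for *Hspa5*, -0.31 to -0.15 for *Hsp90b1*, -0.29 to -0.094 for *Creld2*, -0.19 to -0.040 for *Pdia4*, -0.28 to -0.16 for *Pdia6* and -0.23 to -0.081 for *Calr*. The cause was not tested.

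*Sdf2l1* had 27 to 86 counts per mouse, above the floor of 3, and its fold between the labels had a 95% interval of 0.509 to 1.29. DESeq2, limma-voom, the other scalings and the other filters kept the sign of each UPR gene for the label. Of the 10 genes most like the group mean, 2 stayed after centring on cage.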
